A study of Mus musculus with 6 samples.

Results

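The genes described here encode the translation initiation factors eIF2 to eIF6, with the kinases, exchange factors and inhibitors that carry the same name. They were taken as every row of the deposited gene tables whose symbol begins with Eif followed by a number from 2 to 6. The pattern matched 58 of 55549 rows, and after 7 rows named as pseudogenes were left out, 51 genes remained. RNA was sequenced from mouse early 2-cell embryos in 2 groups of 3 libraries. One group was labelled as control, and the other had been cultured from 4 h after fertilization with 40 µM ethylparaben (EtP), a paraben preservative. Most exposed embryos stopped development at this stage, according to the series. The labels name the tissue as embryo and state neither the strain, the number of embryos in a library, the hour of collection nor whether replicate libraries stem from separate cultures. The p-values therefore rest on spread among these 6 libraries, part or all of which may be technical.

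Initiation begins when eIF2, carrying GTP and the initiator methionyl-tRNA, joins the small ribosomal subunit together with eIF3. The eIF4 factors bind the capped end of the messenger RNA and unwind it, and eIF5 and eIF5B complete start codon selection and joining of the large subunit. Phosphorylation of the alpha subunit of eIF2 blocks its reloading by the exchange factor eIF2B, and proteins that bind eIF4E block cap recognition. In the mouse, the egg carries a store of maternal messenger RNA, and the embryonic genome takes over during the 2-cell stage.

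Library totals lay between 11173295 and 14737152 estimated counts, of which the 51 genes took 0.639% to 0.743%. Oocyte and early embryo markers were abundant in all libraries, with the 12 markers summing to 9541 to 10682 TPM (a unit scaled for length and depth) in control and 14421 to 16640 in EtP. The 8 markers of the 2-cell embryo summed to 443.5 to 515 TPM in control and 24.8 to 30.7 in EtP, so the groups also differed in stage markers. Cumulus, sperm and blood markers were low and were lower in EtP, where they summed to 7.31 to 9.87, 5.10 to 7.04 and 0.00 to 0.02 TPM against 14.5 to 23.6, 21.5 to 32.7 and 6.15 to 15.03 in control. Amh, Ptx3, Tnp1, Hbb-bs and Hbb-bt were at 0 in every library. The part of these markers in the results below was not tested. RNA composition differed between the groups, and the scaling factors (TMM) that adjust each library for composition lay between 1.20 and 1.39 for control and between 0.738 and 0.833 for EtP. With library size alone the median log2 fold change of all tested genes moved by -0.73. CPM values, which are counts scaled to library size, and fold changes below use the TMM factors, and TPM values do not. With TMM, 2 of the 4 tested cumulus genes fell. Cyp19a1, the most abundant cumulus marker, stood at 35.35, 17.9 and 13.2 CPM in control. In EtP it stood at 15.6, 17.2 and 18.5 CPM, with overlap (log2 fold change -0.37, edgeR adjusted p = 0.436). Fewer cells and less RNA per cell cannot be told apart in such libraries.

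Of the 51 genes, 49 had enough counts to be tested. The exceptions were Eif4ebp3, with at most 0.18 CPM in any library, and Eif2c5, a long non-coding RNA row at 0 in every library. The genes that rose in EtP numbered 14 and those that fell 4, by edgeR's quasi-likelihood test at a Benjamini-Hochberg adjusted p below 0.05 over all 14373 tested genes. The share that rose, 28.6% of 49, was above the 12.5% of all tested genes that rose, and the share that fell, 8.16%, was below the 18.1% of all tested genes. In both directions together, 18 of the 49 were called, beside 30.6% of all tested genes. The median log2 fold change was 0.36 over the 49 and -0.19 over all tested genes. Scaled CPM did not overlap between the groups for 23 of the 49 with EtP higher and for 5 with EtP lower, where the shares of all tested genes were 19.0% and 27.9%.

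The family was also divided by mean CPM over all 6 libraries, a level that includes the EtP values and so is not independent of the change. Of the 20 initiation factor genes with a mean of at least 50 CPM, 9 rose (45.0%) and 1 fell, beside 35.7% and 4.78% of all genes at that level. Below 50 CPM, 5 of 29 rose (17.2%) and 3 fell, beside 7.0% and 21.3% of all such genes. This division was chosen after the values were seen. The direction of the family as a whole depended on scaling: with library size alone 5 of the 49 were higher (10.2%, background 3.79%) and 18 lower (36.7%, background 53.0%). Single libraries also moved the counts. There were 18 higher and 5 lower without control 1, 7 and 2 without control 2, and 14 and 3 without control 3. The counts were 7 and 2 without EtP 1, 8 and 2 without EtP 2, and 10 and 2 without EtP 3. The background moved too. Over these fits 14.3% to 36.7% of the family rose, beside 7.05% to 17.6% of all tested genes. The shares that fell were 4.08% to 10.2% and 10.7% to 19.3%. Within each fit the family's share that rose was above the background, and its share that fell was below. In each of the 6 fits that left out 1 library, 9 of the 18 calls held: Eif2b3, Eif2b4, Eif2s2, Eif2s3y, Eif3c, Eif3e, Eif4e3, Eif5a2 and Eif5b. Among these 9, Eif2s3y and Eif5a2 passed the filter on low counts only through control, the group where they were higher. They are 2 of the 4 genes that fell.

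The subunits of eIF2 moved in opposite directions. Eif2s2, the beta subunit, which contacts eIF5 and eIF2B, stood at 276.5, 136 and 137 CPM in the control libraries and at 714, 928.5 and 599 CPM in the EtP libraries. Every EtP library was above every control library, and control 1 was the highest of its group. The increase was 2.03 ± 0.32 on the log2 scale (SE; edgeR adjusted p = 0.00103). Eif2s3x, the X-linked gamma subunit that holds GTP and the initiator tRNA, stood at 89.8, 95.3 and 97.3 CPM in control and 60.6, 54.2 and 67.2 CPM in EtP. All 3 EtP libraries were below the control libraries, a change of -0.63 ± 0.20 (edgeR adjusted p = 0.0351). Eif2s1, the alpha subunit that carries the regulatory phosphorylation site, stood at 148, 74.2 and 76.8 CPM in control and 136, 135 and 131 CPM in EtP. The EtP values lay within the control range, with a log2 fold change of 0.43 ± 0.28 (edgeR adjusted p = 0.270). Without control 1, the highest library, the value was 0.92 ± 0.17 and was called (edgeR adjusted p = 0.00102), and with library size alone it was -0.28 (0.359).

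Eif2s3y, the Y-linked gamma subunit, was rare, with 0.6001, 0.635 and 1.04 CPM in the control libraries and no count in any EtP library. Its 38 counts over the control group and 0 over the EtP group made it at least 7.82-fold lower in EtP, with 3 counts in the whole group as the floor (edgeR adjusted p = 0.00294). Such a floor covers counting error only, and a gene without an EtP count can pass the filter on low counts only through control. The call of Eif2s3x was lost without control 2, control 3, EtP 1, EtP 2 or EtP 3 (edgeR adjusted p = 0.157, 0.0748, 0.158, 0.163 and 0.0836). Read sharing also touches eIF2: 34.3% of the 150-base windows of the Eif2s3x transcript recur in the processed pseudogene Gm2223, which fell by 1.06, and 13.0% of those of Eif2s2 recur in Gm9892, which rose by 2.11.

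Within the complex, transcript shares do not depend on library scaling. Eif2s2 made up 42.3%, 34.5% and 38.9% of the summed TPM of the 4 eIF2 genes in control and 71.7%, 77.4% and 70.4% in EtP. Eif2s1 made up 31.2% ± 4.58 in control and 17.5% ± 1.43 in EtP, and Eif2s3x 29.6% ± 7.38 and 9.33% ± 2.56 (SD, n = 3). None of these 3 shares overlapped between the groups. In control, the most abundant of the 3 subunits exceeded the least abundant 2.00-, 1.17- and 1.42-fold in TPM, with a different order in each library. In EtP the ratio was 7.54, 11.6 and 5.97, each time of Eif2s2 over Eif2s3x. Summed eIF2 TPM was 311 ± 49.2 in control and 435 ± 49.6 in EtP (SD, n = 3).

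The exchange factor eIF2B has a regulatory part, made of Eif2b1, Eif2b2 and Eif2b4 (alpha, beta and delta), and a catalytic part, made of Eif2b3 and Eif2b5 (gamma and epsilon). Of the 5 genes, 3 rose and 1 fell; with library size alone 1 was higher and 1 lower, as Eif2b1 (0.36, edgeR adjusted p = 0.233) and Eif2b3 (0.27, 0.308) were not called. Eif2b4 stood at 16.6, 14.8 and 11.8 CPM in control and 50.4, 49.7 and 52.3 CPM in EtP. The groups were far apart and the EtP libraries nearly equal, with a log2 fold change of 1.82 ± 0.23 (edgeR adjusted p = 0.000261). Eif2b1, the most abundant of the 5, stood at 202, 134 and 101 CPM in control and 343, 246.5 and 326.5 CPM in EtP. Its groups did not overlap, and the change was 1.07 ± 0.28 (edgeR adjusted p = 0.0143). Eif2b3 stood at 31.0, 27.3 and 22.6 CPM in control and 53.0, 53.5 and 54.7 CPM in EtP, again without overlap (0.99 ± 0.22, edgeR adjusted p = 0.00629).

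Eif2b2 was the subunit that fell, from 10.3, 10.3 and 13.3 CPM in control to 5.69, 7.40 and 6.54 CPM in EtP. The groups did not overlap, and the change was -0.79 ± 0.26 (edgeR adjusted p = 0.0400). Eif2b5, the catalytic epsilon subunit, was rare, at 0.480, 2.96 and 2.79 CPM in control and 1.35, 1.10 and 2.15 CPM in EtP. Control 1 was the lowest of the 6 libraries for this gene and the groups overlapped (-0.42 ± 0.59, edgeR adjusted p = 0.625). The share of Eif2b4 in the summed TPM of the complex was 10.99% ± 1.05 in control and 25.3% ± 3.06 in EtP, and that of Eif2b2 was 8.49% ± 3.61 and 2.00% ± 0.462 (SD, n = 3), both without overlap. Shares of Eif2b1, at 64.3% ± 4.52 and 59.4% ± 4.91, and of Eif2b3, at 15.4% ± 1.53 and 13.1% ± 1.51, overlapped. The call of Eif2b2 was lost without control 2, control 3, EtP 1, EtP 2 or EtP 3 (edgeR adjusted p = 0.107, 0.121, 0.188, 0.0882 and 0.126), and that of Eif2b1 without control 2 or EtP 1 (0.0605 and 0.0588). Exons of Eif2b4 overlap those of Snx17 on the opposite strand, whose own count also rose (edgeR adjusted p = 0.00465), and in a library type that does not mark strand their reads cannot be told apart.

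**Figure D1:**
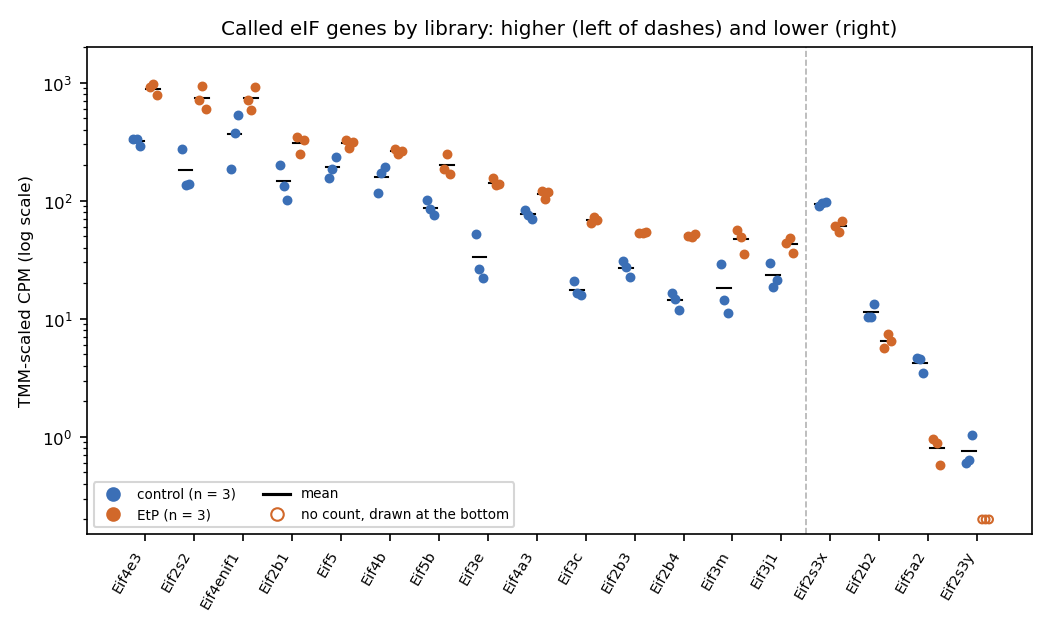
TMM-scaled CPM (log axis) of the 18 called genes in each control (blue) and EtP (orange) library; lines are group means and open circles are libraries without a count. To the left of the dashed line the EtP points of the 14 genes that rose lie above all control points, and to the right those of the 4 that fell lie below.

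None of the 4 kinases of the eIF2 alpha subunit was called in edgeR, with 1 higher at an unadjusted p below 0.05, 1 in DESeq2 and 0 in limma-voom, and 1 lower with library size alone. Eif2ak1, the heme-regulated kinase, stood at 21.9, 35.3 and 37.3 CPM in control and 48.0, 42.5 and 56.4 CPM in EtP. Its EtP libraries were all above control, but the change of 0.64 ± 0.26 missed the threshold (edgeR adjusted p = 0.0828). It passed with RLE scaling (0.0436) and in DESeq2 (0.0263), as it did without control 1 (0.0417) or control 3 (0.0357). It did not pass with upper-quartile scaling or in limma-voom, and with library size alone the value was -0.10 (edgeR adjusted p = 0.775). Eif2ak4, the amino acid sensor GCN2, stood at 38.0 ± 11.2 and 49.2 ± 6.27 CPM, Eif2ak3, the endoplasmic reticulum kinase PERK, at 5.93 ± 0.149 and 7.13 ± 0.927, and Eif2ak2, the double-stranded RNA sensor PKR, at 3.37 ± 0.840 and 2.83 ± 0.0669 in control and EtP (SD, n = 3). Their groups overlapped, and their log2 fold changes were 0.37, 0.26 and -0.26. Eif2a and Eif2d, which can deliver initiator tRNA outside the eIF2 cycle, were at 21.5 ± 6.44 and 28.9 ± 3.63 CPM in control and 19.9 ± 3.77 and 28.03 ± 3.56 CPM in EtP. With TMM neither was called by edgeR or had an unadjusted p below 0.05 (-0.11 ± 0.27 and -0.04 ± 0.22), nor was either called by DESeq2 or limma-voom, but with library size alone both were lower (-0.82 and -0.78, edgeR adjusted p = 0.0304 and 0.0252).

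Of the 14 eIF3 genes, 4 rose and none fell in edgeR, with a median log2 fold change of 0.29. The counts were 4 and 0 also at an unadjusted p below 0.05, in DESeq2 and in limma-voom, but 2 and 5 with library size alone. Among all tested genes 12.5% rose and 18.1% fell with TMM, and 3.79% and 53.0% did so with library size alone. The octamer of eIF3 that sits on the small ribosomal subunit held the largest increases. Eif3e, an octamer subunit, stood at 52.1, 26.4 and 22.1 CPM in control and 155, 134.5 and 138 CPM in EtP. All EtP libraries exceeded control 1, the highest control, and the change was 2.09 ± 0.32 (SE; edgeR adjusted p = 0.00090). Eif3c, which anchors eIF1 and eIF5 to the complex, stood at 20.7, 16.6 and 15.8 CPM in control and 64.6, 72.3 and 68.3 CPM in EtP. Both groups were tight and far apart (1.95 ± 0.22, edgeR adjusted p = 0.000146). Eif3m, which joins the other octamer subunits, stood at 29.1, 14.4 and 11.1 CPM in control and 56.0, 49.5 and 35.6 CPM in EtP. The lowest EtP library was above the highest control library, and the change was 1.37 ± 0.35 (edgeR adjusted p = 0.0144).

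The other 5 octamer genes were not called. Eif3h was at 99.97 ± 19.9 and 117 ± 16.7 CPM, Eif3a, the large scaffold subunit, at 24.9 ± 2.23 and 32.9 ± 4.64, and Eif3k at 17.4 ± 6.33 and 13.5 ± 0.917 in control and EtP (SD, n = 3). Eif3l and Eif3f were rarer, at 6.32 ± 2.09 and 4.55 ± 1.93 CPM in control and 8.61 ± 0.639 and 2.71 ± 1.10 in EtP. Log2 fold changes of these 5 ran from -0.73 for Eif3f to 0.45 for Eif3l. Among the 6 peripheral genes, Eif3j1, a loosely bound subunit near the decoding site, was the one that rose. It stood at 29.7, 18.7 and 21.4 CPM in control and 43.8, 48.7 and 36.0 CPM in EtP, without overlap (0.88 ± 0.25, edgeR adjusted p = 0.0219). Its near copy Eif3j2 was at 18.5 ± 6.14 and 21.3 ± 5.31 CPM and its groups overlapped. The copies are hard to separate, since 77.1% of the 150-base windows of Eif3j2 recur in Eif3j1 and 32.7% of those of Eif3j1 recur in Eif3j2. Exons of Eif3j1 also overlap those of Spg11 on the opposite strand.

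Eif3i, a peripheral propeller-domain subunit, was the most abundant eIF3 transcript. It stood at 401, 293 and 256 CPM in control and 368.5, 332 and 338 CPM in EtP, an overlap with a log2 fold change of 0.13 ± 0.22 (edgeR adjusted p = 0.694) that turned to -0.59 with library size alone. Eif3d, which can itself bind the cap, was at 16.3 ± 2.26 and 20.9 ± 1.42 CPM, Eif3b, the scaffold of the peripheral part, at 11.8 ± 4.57 and 6.38 ± 3.53, and Eif3g, an RNA-binding subunit, at 7.70 ± 1.33 and 5.33 ± 1.20. None of these 3 was called, with log2 fold changes of 0.36, -0.89 and -0.53. The call of Eif3m was lost without control 2, EtP 1 or EtP 2 (edgeR adjusted p = 0.0614, 0.0586 and 0.05004), and that of Eif3j1 without the same libraries (0.0885, 0.0731 and 0.0793). Both were lost with library size alone (0.66 and 0.15, edgeR adjusted p = 0.0973 and 0.603). Exons of Eif3m overlap those of Ccdc73 on the opposite strand, which was not called (-0.14).

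Transcript shares within eIF3 differed most plainly for the octamer subunits that rose and for Eif3i. Eif3e made up 5.57%, 3.92% and 3.62% of the summed TPM of the 14 genes in control and 14.1%, 13.3% and 14.2% in EtP. Eif3c made up 2.34%, 2.47% and 2.70% in control and 7.86%, 9.36% and 8.71% in EtP. Neither gene's shares overlapped, and those of Eif3m, at 2.77% ± 0.785 and 5.43% ± 0.932 (SD, n = 3), did not either. Eif3i made up 59.2% ± 0.259 in control and 47.0% ± 1.38 in EtP, and Eif3h 15.9% ± 0.824 and 13.4% ± 1.06, both without overlap. Eif3k made up 4.98% ± 0.696 and 2.89% ± 0.354 and Eif3g 1.52% ± 0.252 and 0.747% ± 0.218, again without overlap. Summed TPM was 293 ± 24.5 and 361 ± 19.3 for the octamer genes and 581 ± 24.1 and 413 ± 30.4 for the peripheral genes in control and EtP.

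**Figure D2:**
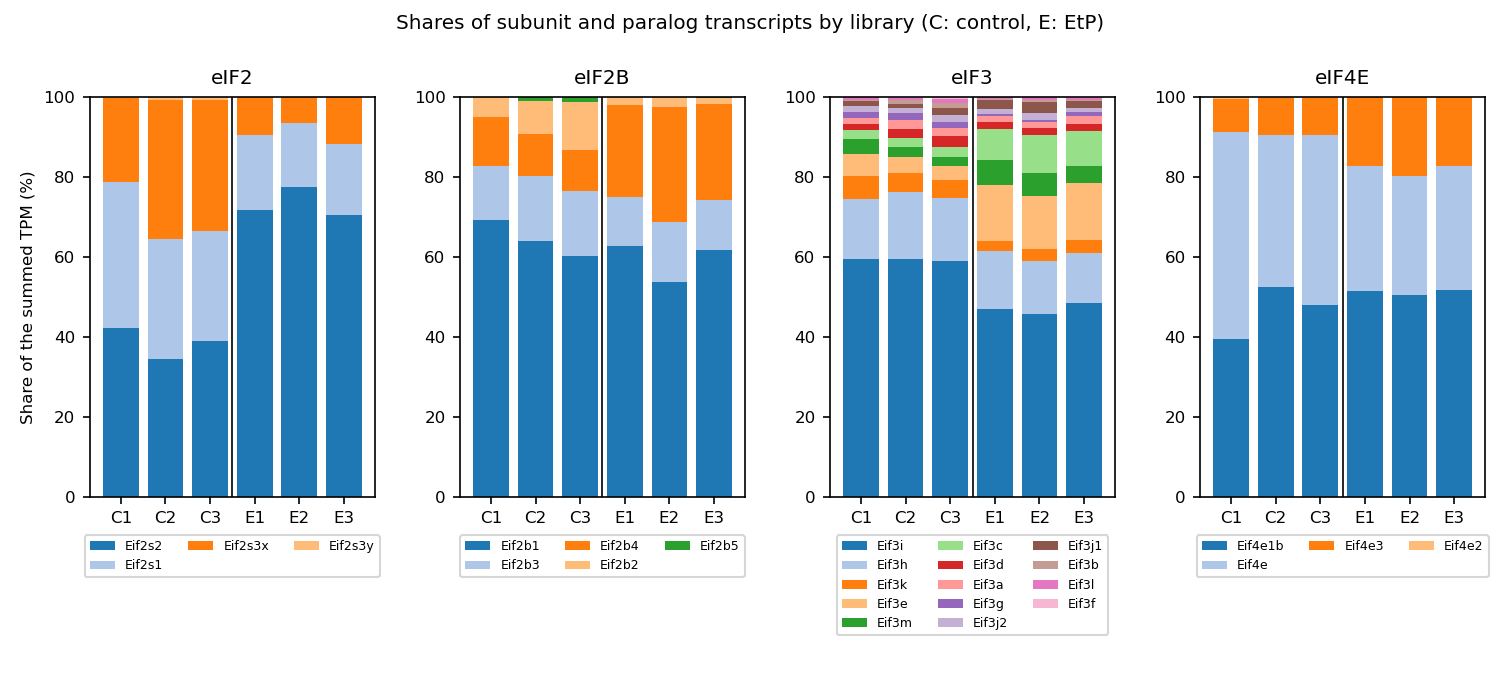
Share of each gene in the summed TPM of eIF2, eIF2B, eIF3 and the eIF4E family in each control (C1 to C3) and EtP (E1 to E3) library. The eIF2 column shows Eif2s2 at 34.5% to 42.3% in control and 70.4% to 77.4% in EtP; the eIF3 column shows larger shares of Eif3e and Eif3c and smaller shares of Eif3i in EtP.

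Of the cap-binding eIF4E family, only Eif4e3 was called. This atypical cap-binding protein stood at 336, 332 and 289.5 CPM in control and 914, 965 and 785 CPM in EtP. The groups were well separated, with a log2 fold change of 1.48 ± 0.20 (edgeR adjusted p = 0.000459). Eif4e1b, the oocyte form of the family and its most abundant transcript, stood at 826, 1022 and 831 CPM in control and 1249, 1054 and 1188 CPM in EtP. Its EtP libraries were all above control by a small margin (0.38 ± 0.20, edgeR adjusted p = 0.172). Eif4e, the general cap-binding factor, stood at 1015, 657.5 and 684 CPM in control and 696, 593 and 652.5 CPM in EtP. Control 1 was far above the others and the groups overlapped (-0.28 ± 0.23, edgeR adjusted p = 0.377). In TPM the groups of Eif4e did not overlap, with 1192, 966 and 1098 in control and 686, 603 and 686 in EtP. Library size alone gave -0.997, which was called (edgeR adjusted p = 0.00252). Eif4e2, a cap-binding repressor of translation, stood at 10.02, 6.08 and 7.14 CPM in control and 5.02, 3.76 and 3.98 CPM in EtP. These groups did not overlap, and the change of -0.86 ± 0.30 lay just outside the threshold (edgeR adjusted p = 0.0509), within it with upper-quartile scaling (0.0391) and with library size alone (0.00156). The overlapping row Gm20696, in which 3.47% of the windows of Eif4e3 recur, rose by 1.69.

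Shares within the eIF4E family also differed between the groups. Eif4e3 made up 8.27%, 9.18% and 9.08% of the summed eIF4E TPM in control and 17.1%, 19.7% and 17.1% in EtP. Eif4e made up 51.8%, 38.1% and 42.6% in control and 31.4%, 29.8% and 30.9% in EtP. Both shares separated the groups, while that of Eif4e1b, at 46.6% ± 6.53 and 51.2% ± 0.718 (SD, n = 3), overlapped. The ratio of Eif4e1b to Eif4e in TPM was 0.762, 1.37 and 1.13 in control and 1.64, 1.69 and 1.67 in EtP. The oocyte form thus exceeded Eif4e in every EtP library and in control 2 and control 3. The difference in log2 ratio was 0.66, with a two-sided exact permutation p of 0.1, the smallest that 3 against 3 allows, and 0.18 after Benjamini-Hochberg adjustment over 9 ratios. For Eif4e2 over Eif4e the log2 ratio was -6.69 ± 0.01 in control and -7.42 ± 0.14 in EtP (SD, n = 3; exact permutation p = 0.1, adjusted p = 0.18), a difference of -0.74.

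None of the 3 eIF4G scaffolds, which bridge the cap-binding protein and eIF3, was called in edgeR with TMM, DESeq2 or limma-voom; 1 was higher at an unadjusted p below 0.05, and 1 was lower with library size alone. Eif4g2, a scaffold that lacks the eIF4E-binding region, was the most abundant at 121, 168 and 178 CPM in control and 108, 157 and 126.5 CPM in EtP. The groups overlapped (-0.26 ± 0.23, edgeR adjusted p = 0.436). Eif4g1 was at 32.5 ± 6.01 and 37.2 ± 7.64 CPM and Eif4g3 at 16.4 ± 3.72 and 24.1 ± 2.48 CPM in control and EtP (SD, n = 3). Their log2 fold changes were 0.19 and 0.55. The share of Eif4g1 in the summed TPM of the scaffolds was 11.2% ± 1.21 in control and 14.9% ± 1.03 in EtP, and that of Eif4g2 was 80.8% ± 2.48 and 73.2% ± 2.83. The ratio of Eif4g2 to Eif4g1 was 8.21, 6.26 and 7.43 in control and 5.33, 4.94 and 4.51 in EtP, a difference in log2 ratio of -0.56 (exact permutation p = 0.1, adjusted p = 0.18). Summed TPM of the scaffolds was 125 ± 20.1 in control and 60.1 ± 11.4 in EtP, a unit that is not adjusted for composition.

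The eIF4A helicases gave similar fold changes. Eif4a1 stood at 335, 475 and 363 CPM in control and 674, 558 and 508 CPM in EtP, all above control (0.57 ± 0.22, edgeR adjusted p = 0.0732). Eif4a2 stood at 505, 290 and 256 CPM in control and 616.5, 486 and 549 CPM in EtP, where control 1 reached into the EtP range (0.65 ± 0.27, edgeR adjusted p = 0.0931). Both passed in DESeq2 (adjusted p = 0.0221 and 0.0491) and without control 1 (edgeR adjusted p = 0.0402 and 0.000555). With library size alone neither was called, at -0.17 and -0.06 (edgeR adjusted p = 0.5025 and 0.8497). Eif4a3, the helicase of the exon junction complex, stood at 83.4, 75.2 and 70.6 CPM in control and 122, 102.5 and 118 CPM in EtP. It rose by 0.58 ± 0.20 (edgeR adjusted p = 0.0492), a direction that turned to -0.14 with library size alone. Its call was lost without control 2, control 3, EtP 1, EtP 2 or EtP 3 (edgeR adjusted p = 0.126, 0.0796, 0.156, 0.0678 and 0.120). Shares of the 3 helicases in their summed TPM overlapped between the groups, and 56.6% of the windows of Eif4a1 recur in the pseudogene Eif4a-ps4.

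Eif4b, which stimulates the helicase, stood at 116, 170 and 191 CPM in control and 276, 246 and 262 CPM in EtP. The EtP libraries were all higher and the change was 0.72 ± 0.23 (edgeR adjusted p = 0.03665), with -0.03 under library size alone. The related Eif4h was at 29.6 ± 5.20 and 25.1 ± 3.70 CPM (SD, n = 3), with overlap. The call of Eif4b was lost without control 2, EtP 1, EtP 2 or EtP 3 (edgeR adjusted p = 0.0627, 0.113, 0.0713 and 0.0861).

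Among the proteins that bind eIF4E and keep it from the scaffold, Eif4enif1 was called. This eIF4E transporter, known in oocytes as part of repressed messenger ribonucleoproteins, stood at 187, 375 and 533 CPM in control and 708, 589 and 924.5 CPM in EtP. Both groups were wide but did not overlap (1.02 ± 0.34, edgeR adjusted p = 0.0447). Its call was lost without control 2, EtP 1, EtP 2 or EtP 3 (edgeR adjusted p = 0.0774, 0.0888, 0.0626 and 0.142), and with library size alone (0.27, 0.540). The inhibitors controlled by mTORC1 were rare. Eif4ebp1 stood at 3.60, 1.90 and 0.714 CPM in control and 1.06, 0.663 and 0.497 CPM in EtP, with overlap at control 3 (-1.49 ± 0.60, edgeR adjusted p = 0.0861), and passed without control 3 (0.0163). Eif4ebp2 stood at 4.44, 9.04 and 9.48 CPM in control and 4.05, 4.86 and 5.55 CPM in EtP, with overlap at control 1 (-0.66 ± 0.34, edgeR adjusted p = 0.164). It passed without control 1 (-0.84, edgeR adjusted p = 0.0217) and with library size alone (-1.41, 0.00909).

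Both factors of the last steps of initiation rose with TMM scaling, and neither was called with library size alone. Eif5b, the GTPase that joins the ribosomal subunits, stood at 102, 84.6 and 75.8 CPM in control and 184, 250 and 169 CPM in EtP. Its lowest EtP library was well above control 1, and the change was 1.20 ± 0.23 (edgeR adjusted p = 0.00331), which became 0.47 and was not called with library size alone (0.0840). Its exons overlap those of Rev1 on the opposite strand. Eif5, the protein that triggers GTP hydrolysis by eIF2, stood at 156, 184.5 and 235 CPM in control and 325.5, 278 and 311 CPM in EtP. The groups did not overlap, and the change was 0.67 ± 0.22 (edgeR adjusted p = 0.0392), with -0.08 under library size alone. The call of Eif5 was lost without control 2, EtP 1, EtP 2 or EtP 3 (edgeR adjusted p = 0.0933, 0.124, 0.0648 and 0.0959).

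Of the eIF5A paralogs, the rarer one was called. Eif5a, a hypusine-containing factor that relieves stalled ribosomes, was abundant at 314, 376 and 384.5 CPM in control and 493, 467 and 487 CPM in EtP. The EtP libraries were all higher, but the change of 0.43 ± 0.19 was not called (edgeR adjusted p = 0.117) and was -0.31 with library size alone. Eif5a2, its rarer paralog, stood at 4.62, 4.55 and 3.50 CPM in control and 0.965, 0.884 and 0.580 CPM in EtP. No EtP library came near control, and the change was -2.39 ± 0.37 (edgeR adjusted p = 0.00106). With 10, 8 and 7 counts in the EtP libraries, the gene passed the filter on low counts only through control. This change is therefore given as a description. The log2 ratio of Eif5a2 to Eif5a in TPM was -8.60 ± 0.35 in control and -11.46 ± 0.36 in EtP (SD, n = 3), a difference of -2.86. Eif5a2 reached the minimum of 1 TPM for this ratio in control only, so the ratio is given as a description. Eif6, which keeps the large ribosomal subunit from joining too early, stood at 60.01, 55.1 and 62.0 CPM in control and 79.4, 63.4 and 74.4 CPM in EtP. The EtP libraries were higher by a narrow margin, and the change was not called (0.29 ± 0.20, edgeR adjusted p = 0.300). In TPM the direction was the reverse without overlap, with 120.4, 111.5 and 147 in control and 95.7, 69.4 and 105.1 in EtP. Library size alone gave -0.44, which was not called (edgeR adjusted p = 0.1115).

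**Figure D3:**
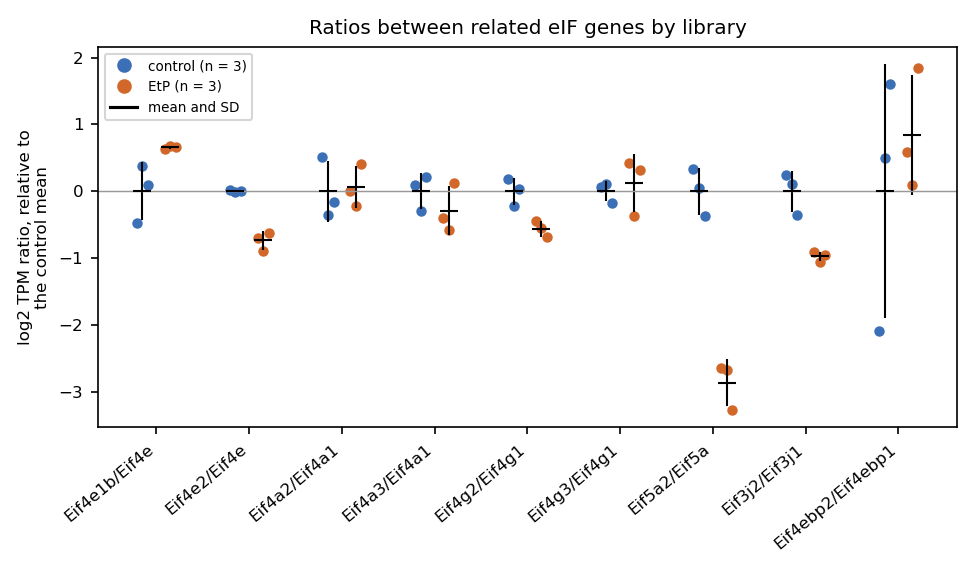
Log2 TPM ratio between related genes in each library, relative to the control mean of that ratio; points are libraries and bars mean and SD (n = 3 per group). Eif5a2 over Eif5a lies 2.86 lower in EtP, Eif4e1b over Eif4e lies 0.66 higher, and the ratios among eIF4A genes overlap.

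Over the 9 ratios between paralogs that could be formed, 5 did not overlap between the groups, among them that of Eif5a2, which entered through control alone. The share among ratios of other gene pairs is not given, so this count is a description only. For single genes, scaled CPM did not overlap in 19.0% of all tested genes with EtP higher and 27.9% with EtP lower. Besides those given above, Eif3j2 over Eif3j1 was 1.34, 1.21 and 0.888 in control and 0.5996, 0.544 and 0.583 in EtP, a difference in log2 ratio of -0.97 (exact permutation p = 0.1, adjusted p = 0.18). Because 77.1% of the windows of Eif3j2 recur in Eif3j1, this ratio also depends on how shared reads were divided between them. Ratios of Eif4a2 and Eif4a3 to Eif4a1, of Eif4g3 to Eif4g1 and of Eif4ebp2 to Eif4ebp1 overlapped (adjusted p from 0.45 to 0.8). No ratio could pass an adjusted threshold of 0.05 in a design of 3 against 3. The whole family kept a similar weight in TPM, at 6450 ± 528 in control and 6161 ± 384 in EtP (SD, n = 3), with overlap.

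Stored maternal transcripts are often controlled through the cytoplasmic polyadenylation element near their 3′ end, and transcripts of the translation machinery often begin with a run of pyrimidines, so both were looked up. The last 100 bases of the GENCODE M21 transcript held TTTTAT or TTTTAAT on the sense strand in 2 of 44 genes of the family whose 3′ untranslated region is that long (4.55%), Eif4e3 and Eif3j2, and in 2184 of 10766 tested protein-coding genes (20.3%). Among all tested protein-coding genes that rose the share was 24.1%, and among those that fell 16.5%. The region of Eif3m is shorter than the window but holds the same letters. A poly(A) signal (AATAAA or ATTAAA) lay in this window in 37 of the 44 genes (84.1%) and in 81.6% of the tested protein-coding genes. The last 100 bases of Eif4e3 held AATAAA, while those of Eif3m held neither form. Eif4e3 and Eif3m are shown because both rose. Capitals mark the letters TTTTAT, and bases run 5′ to 3′.
Eif4e3: aaTTTTATttttgaactttatttaaagc
Eif3m: gatacctgaatTTTTATgaaaatgattt

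A pyrimidine run, taken as a C at the start site followed by at least 4 further C or T bases, was looked up on the sense strand of the RefSeq promoter table (GRCm38.p6), which matched 40 of the 51 genes. It was found in Eif2s3x and Eif3f among the 39 matched genes that were tested (5.13%), and in 311 of 9936 tested genes in the table (3.13%). The untested Eif2c5 held it too. None of the 11 matched genes that rose held it, beside 2.57% of all tested genes that rose. The windows cover 20 bases before the start and 10 from it on. Eif2s3x, which fell, and Eif3f, which was not called, are set beside Eif2s2, Eif2b4 and Eif3c, which rose; capitals mark the run within the window.
Eif2s3x (chrX:94212642-94212671, minus strand): ggcggctgccgagcattttcCTTTTCTCTC
Eif3f (chr7:108934395-108934424, plus strand): gctcttctgttctaggctctCTCTCTTTCT
Eif2s2 (chr2:154892897-154892926, minus strand): agaagcacgtaaggttggctttactgtacg
Eif2b4 (chr5:31193130-31193159, minus strand): ctgggcgggacccagtgcacgccggaagtt
Eif3c (chr7:126566357-126566386, minus strand): cctgtctcacctgctcagagggactcggca
These matches describe letters in the annotated windows and not the starts or ends used in the embryos.

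Other genes of the translation pathway were taken from 9 lists. Of 57 tested genes, 7 rose and 6 fell, shares near or below those of all tested genes, and the median log2 fold change was -0.14. With library size alone 1 was higher and 29 lower, beside 3.79% and 53.0% of all tested genes. None of the 4 eIF1 genes, the 4 tested eIF2 alpha phosphatase genes, the 2 tested reinitiation genes or the 2 hypusination enzymes was called by edgeR with TMM, DESeq2 or limma-voom or had an unadjusted p below 0.05. With library size alone 1 eIF1 gene, 4 phosphatase genes and 2 reinitiation genes were lower. Gspt2, a release factor that works with eRF1, stood at 26.5, 33.4 and 38.8 CPM in control and 134, 122 and 111 CPM in EtP. Its groups lay far apart (1.89 ± 0.23, edgeR adjusted p = 0.000211). Paip1, a partner of the poly(A)-binding protein, stood at 920, 748 and 672 CPM in control and 1627, 1400 and 1426 CPM in EtP (0.93 ± 0.21, edgeR adjusted p = 0.00719). Pabpc1, a poly(A)-binding protein gene that was rare here, was at 2.88, 3.01 and 4.74 CPM in control and 1.25, 1.77 and 1.32 CPM in EtP. The change was -1.29 ± 0.37 (edgeR adjusted p = 0.0228). Neither gene's groups overlapped, but the call of Pabpc1 was lost without control 2, control 3, EtP 1, EtP 2 or EtP 3 (edgeR adjusted p = 0.0530, 0.0835, 0.106, 0.0542 and 0.0878). The elongation factor Eef1g rose by 1.11 ± 0.29 (edgeR adjusted p = 0.0147; 0.0753 without EtP 1). With library size alone Gspt2 was still called higher (1.14), while Paip1 (0.21) and Eef1g (0.37) were not called.

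Of 10 tested transcripts known as targets of the response to eIF2 alpha phosphorylation, 2 rose and 3 fell, with a median of -0.43. With library size alone 0 were higher and 6 lower. Beside these counts, 12.5% of all tested genes rose and 18.1% fell, and 3.79% and 53.0% did so with library size alone. Ddit3, which encodes the factor CHOP, stood at 57.0, 33.2 and 23.1 CPM in control and 14.3, 11.5 and 12.3 CPM in EtP (-1.57 ± 0.33, edgeR adjusted p = 0.00490). This symbol has 2 rows in the deposited data, and the values given are those of the first. Psat1, a serine synthesis enzyme, stood at 6.24, 10.1 and 8.11 CPM in control and 0.00, 0.00 and 0.580 CPM in EtP. Both genes separated the groups in every library, but Psat1 could pass the filter on low counts only through control, so no fold is given. Atf4, the central transcription factor of the response, stood at 56.2, 85.0 and 84.2 CPM in control and 120, 126 and 115 CPM in EtP, a rise of 0.68 ± 0.22 (edgeR adjusted p = 0.0422) that became -0.07 with library size alone. Its call was lost without control 2, EtP 1, EtP 2 or EtP 3 (edgeR adjusted p = 0.0553, 0.110, 0.106 and 0.0831). Ddit4, an inhibitor of mTORC1, rose by 0.95 ± 0.27 (edgeR adjusted p = 0.0203; 0.0696 without EtP 1, 0.0750 without EtP 2 and 0.540 with library size alone). Cebpb, a transcription factor gene, stood at 0.720, 2.01 and 2.01 CPM in control and 0.00, 0.110 and 0.414 CPM in EtP. It too passed the filter only through control, and its call was lost without EtP 1 or EtP 2 (edgeR adjusted p = 0.0582 and 0.0734).

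In the list of mTORC1 and cap-binding signalling, 2 of 15 genes rose and 2 fell, with a median of -0.14. With library size alone 0 were higher and 7 lower. The shares of all tested genes were 12.5% and 18.1% with TMM, and 3.79% and 53.0% with library size alone. Mknk1, a kinase of eIF4E, rose by 0.90 ± 0.26 (edgeR adjusted p = 0.0255; 0.0773 without EtP 1, 0.0937 without EtP 3 and 0.558 with library size alone). The ribosomal S6 kinase gene Rps6kb1 stood at 33.9, 36.8 and 32.3 CPM in control and 52.2, 58.0 and 53.2 CPM in EtP, a rise of 0.66 ± 0.20 (edgeR adjusted p = 0.0302) that became -0.07 with library size alone and was lost without control 2, EtP 1, EtP 2 or EtP 3 (0.0652, 0.0851, 0.0895 and 0.0702). Pdcd4, an inhibitor of the eIF4A helicase, stood at 11.2, 11.9 and 13.8 CPM in control and 4.44, 5.86 and 5.88 CPM in EtP. Its EtP values were all below control (-1.19 ± 0.26, edgeR adjusted p = 0.00640; 0.0532 without EtP 1). Rps6, a protein of the small ribosomal subunit, fell by 1.22 ± 0.36 (edgeR adjusted p = 0.0257) and was lost without control 1, control 2, EtP 1 or EtP 3 (0.0596, 0.0581, 0.126 and 0.0842).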

How the data were processed

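Smart-seq2 primes polyadenylated RNA with oligo-dT and amplifies cDNA by PCR without molecular identifiers or strand marking; paired reads of 150 bases were sequenced, per the labels' protocols. The submitters' processing notes name cutadapt 1.16, STAR and the build mm10; the STAR version is not given in the sources used here, nor is the counting program. Each expected count deposited by the authors estimates the fragments of a gene and need not be whole: 10.6% to 16.0% of rows were not whole within 0.005. The authors also deposited TPM and FPKM values, which adjust for transcript length and sequencing depth.

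Expected counts were rounded and fitted with edgeR 4.0.16 in R 4.3.3: filterByExpr at its defaults, TMM, robust quasi-likelihood fits with group as the only term, Benjamini-Hochberg adjustment at 0.05 over all tested genes. The step was tested on simulated data. TPM gave shares within complexes and ratios between paralogs (both genes at 1 TPM or more in each library of a group). FPKM served as a second unit for the shares within complexes only. Within a library FPKM is proportional to TPM, so these shares could not differ beyond rounding and were not checked by it. The alternatives tried were scaling by RLE, by upper quartile and by library size alone, 2 other filters, DESeq2 1.42.0, limma 3.58.1 (voom, or trend on log2 of TPM plus 1 or 0.1), the replicate number as a block, a fit that omits mitochondrially encoded genes, and fits without each library in turn. Shared 150-base windows and 3′ ends came from GENCODE M21, whose assembly is that of mm10. Named genes are every called initiation factor, the most abundant of each factor group, those completing a complex, and called genes of the pathway lists. The members and lists were chosen with earlier results of these data known. Figures were drawn with matplotlib 3.10.9.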

Additional observations from a re-analysis of the deposited data

How the results depend on the processing

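Of the 18 called genes, 5 (Eif2b4, Eif2s2, Eif3c, Eif3e and Eif4e3) kept their call and direction under all 17 alternatives, and 9 with library size alone. Eif2s3y and Eif5a2, which passed the default filter only through control, kept theirs under 16. They were too rare to be tested with at least 10 CPM in 3 libraries, a filter that left 37 of the 49 genes. Genes of the family that were higher, 14 as reported, numbered 5 with library size alone, 9 with at least 10 CPM in 3 libraries and 7 on log2 TPM with either pseudocount. Genes that were lower, 4 as reported, numbered 2 with RLE scaling, 2 with at least 10 CPM, 2 in DESeq2, 18 with library size alone, and 12 and 13 on log2 TPM with a pseudocount of 1 and 0.1. Over all tested genes, 1798 higher and 2601 lower became 545 and 7617 with library size alone, 978 and 1454 with at least 10 CPM, 694 and 6165 on log2(TPM + 1), and 698 and 6191 on log2(TPM + 0.1). Leaving out 1 library gave 7 to 18 of the family higher and 2 to 5 lower, and 1096 to 2637 and 1659 to 2887 over all genes. The sign of the fold change differed from the reported one for 20 of the 49 genes with library size alone, all from positive to negative, and for 16 in each TPM setting. Of genes called in either fit, directions turned for Eif3i (-0.59, -0.51 and -0.51) and Eif4a3 (-0.14, -0.34 and -0.34) with library size alone and with both TPM settings, and for Eif4b (-0.033) and Eif5 (-0.076) with library size alone. The EtP-minus-control difference in the log2 ratio of Eif4e2 to Eif4e was -0.74 in TPM and -0.59 in expected counts. The cause of these differences was not tested.

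Same-numbered libraries deviated together with correlations of 0.127, 0.003 and 0.273, and EtP 2 correlated best with control 1 (0.111), so the numbers were not taken as a pairing. With the replicate block, 17 of the family were higher and 7 lower. Counts limit what can be said of Eif2s3y, Eif2b5, Eif4ebp1 and Eif5a2, and 3 libraries per group limit all tests.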

Other observations

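Of the 7 pseudogene rows left out of the family, Eif3s6-ps2, a copy of Eif3e, was tested and stood at 1.26, 0.423 and 0.325 CPM in control and 3.96, 2.43 and 2.82 CPM in EtP. Its EtP libraries were all above control, with a log2 fold change of 2.18 (edgeR adjusted p = 0.00992) beside 2.09 for Eif3e, and 1.40% of the 150-base windows of Eif3e recur in it. Eif4a-ps4 and Eif5al3-ps were not called (0.84 and 0.96, edgeR adjusted p = 0.0955 and 0.0887).

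Among other Y-linked genes, Ddx3y shared the pattern of Eif2s3y, Uty shared it except for 1 count in EtP 3, and Kdm5d did not. Ddx3y had 3, 13 and 6 counts in the control libraries and 0 in each EtP library, and Uty had 5, 2 and 7 counts in control and 0, 0 and 1 in EtP; neither passed the filter on low counts. Kdm5d stood at 22.7, 32.9 and 19.6 CPM in control and 67.6, 74.7 and 31.4 CPM in EtP, a log2 fold change of 1.21 (edgeR adjusted p = 0.0208), although EtP 3 lay within the control range. These genes were chosen after their values were seen.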
